A study of Mus musculus with 12 samples.

Results

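The guanylate-binding proteins (GBPs) and immunity-related GTPases (IRGs) described here are 10 interferon-gamma-inducible mouse genes. They are Gbp2, Gbp3, Gbp4, Gbp5, Gbp6 and Gbp7 of the GBP family, and Irgm1, Irgm2, Igtp and Iigp1 of the IRG family. They were chosen by gene symbol from the 18433 genes of the gene table, and all 10 were among the 14144 genes with enough counts to be tested. Members had between 365 and 12690 counts in a library.

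Tumours were grown from 4T1 cells, a BALB/c mammary carcinoma line, placed under the skin of the right flank of BALB/c mice. Mice with tumours were assigned at random to arms of 5 mice: DSF by mouth together with an anti-PD-1 blocking antibody (the combination), the antibody alone by intraperitoneal injection, DSF alone by mouth, and control. DSF usually stands for disulfiram, an aldehyde dehydrogenase inhibitor, and the labels do not spell it out; anti-PD-1 blocks an inhibitory receptor of T cells. Each of the 4 groups has 3 tumour libraries of total RNA sequenced on a BGISEQ-500, and since the labels do not tie a library to a mouse, p-values measure the spread between these libraries.

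Interferon-gamma, made mainly by T cells and NK cells, signals through its receptor and the kinases JAK1 and JAK2. Promoters that respond to it often hold gamma-activated sites (GAS) and interferon-stimulated response elements (ISRE), which IRF1 binds, and GBP and IRG genes are switched on in immune cells and in most other cells, carcinoma cells included. The encoded GTPases assemble on bacteria and on the vacuoles of intracellular parasites, and some of them feed into inflammasome signalling, so their mRNAs are widely read as a measure of interferon-gamma exposure in a tissue.

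The promoter sequences of 7 members are in the RefSeq table used here (GRCm38.p6, from 250 bases before to 50 after a gene's start). They are shown because the 7 members share, at 1 start site each, a short motif, the core of the ISRE. Each line gives 70 to 80 bases of the strand of the gene, 5′ to 3′, around the ISRE core (GAAA, any 2 bases, GAAA), searched on both strands. Capitals mark ISRE cores, overlapping ones run together, and any GAS motif TTCNNNGAA inside the window.
Gbp2 (chr3:142620564-142620643, plus strand): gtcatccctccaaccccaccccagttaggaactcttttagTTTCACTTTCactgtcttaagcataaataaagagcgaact
Gbp3 (chr3:142559959-142560038, plus strand): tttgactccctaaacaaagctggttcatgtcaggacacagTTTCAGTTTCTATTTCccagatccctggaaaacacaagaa
Gbp5 (chr3:142496729-142496808, plus strand): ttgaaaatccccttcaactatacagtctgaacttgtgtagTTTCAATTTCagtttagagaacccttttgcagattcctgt
Gbp7 (chr3:142530243-142530322, plus strand): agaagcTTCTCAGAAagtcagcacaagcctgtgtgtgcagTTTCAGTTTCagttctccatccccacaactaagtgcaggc
Irgm1 (chr11:48871421-48871490, minus strand): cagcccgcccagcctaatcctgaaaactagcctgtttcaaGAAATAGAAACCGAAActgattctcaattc
Irgm2 (chr11:58214873-58214952, plus strand): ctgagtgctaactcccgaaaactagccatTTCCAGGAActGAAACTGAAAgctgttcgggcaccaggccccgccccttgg
Igtp (chr11:58199482-58199555, plus strand): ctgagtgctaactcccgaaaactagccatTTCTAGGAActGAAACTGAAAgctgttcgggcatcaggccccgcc

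These 7 genes have 8 promoters in the table, since Gbp3 has 2 start sites there. An ISRE core was found in 7 of the 8, against 3.44% of the 32851 mouse promoters in the table, and the second Gbp3 promoter held neither motif. The GAS motif was found in 4 of the 8 (Gbp5, Gbp7, Irgm2 and Igtp), against 8.3% of all promoters. In Gbp5 both GAS matches lie outside the printed window, at bases -245 and -52 from the start. Both motifs together were found in those 4 promoters, against 0.454% of all promoters. In the 4 GBP promoters the core reads on the strand opposite to the gene, and in the 3 IRG promoters on the strand of the gene. Irgm2 and Igtp have the same arrangement of a GAS motif, 2 bases and an ISRE core, which starts at base -75 in Irgm2 and at base -45 in Igtp. A match describes the letters of the window and is not evidence of binding.

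One library of the DSF group stood apart from the others in several tissue markers. The 7 adipocyte markers took 0.641% of its counts (DSF replicate 2), against 0.00385% to 0.0392% in the 11 other libraries, so results that rest on this library are given with and without it. Its 8 fibroblast markers summed to 8620 CPM (counts scaled to a common library size), against 823 to 4600 CPM in the others, and its 8 endothelial markers to 492 CPM, against 133 to 363 CPM. The 11 skin markers took 0.0902%, 0.498% and 0.289% of counts in combination replicates 1, 2 and 3, against 0.00999% to 0.0955% in the other 9 libraries. In combination replicate 2, Krt71 (1370 CPM) and Krt25 (1120 CPM) were a large part of the skin sum of 4840 CPM. Both were at 0.759 CPM or less in the 11 other libraries. The 7 carcinoma epithelium markers summed to 954 to 1300 CPM in the combination, 963 to 1230 CPM with anti-PD-1, 1280 to 1380 CPM with DSF and 1130 to 1230 CPM in controls. Krt8 and Krt18 made up most of each sum. By gene, 3 of the 7 were higher and 4 lower in the combination than with DSF. Epcam averaged 23.5 CPM in the combination and 4.26 CPM with DSF, and Krt19 averaged 1.97 and 12.1 CPM. None of these epithelial markers was at 0 in any library.

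All 10 GTPases had lower mRNA levels in the 3 libraries of tumours given DSF alone than in each of the 9 other libraries. With DSF alone the fitted levels were 36.3% to 51% of control, a median log2 fold change of -1.16, but none of the 10 passed the test over all genes. Libraries of the combination had fitted levels 1.75 to 2.48 times those of DSF alone, and 1 member, Irgm2, passed the test. Neither the combination nor anti-PD-1 alone was set apart from control in any of the 10. Levels below are CPM on TMM-scaled library sizes, fitted with the edgeR quasi-likelihood test on all 12 libraries, and a gene is said to have passed when its Benjamini-Hochberg adjusted p over all genes tested was under 0.05.

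**Figure D1:**
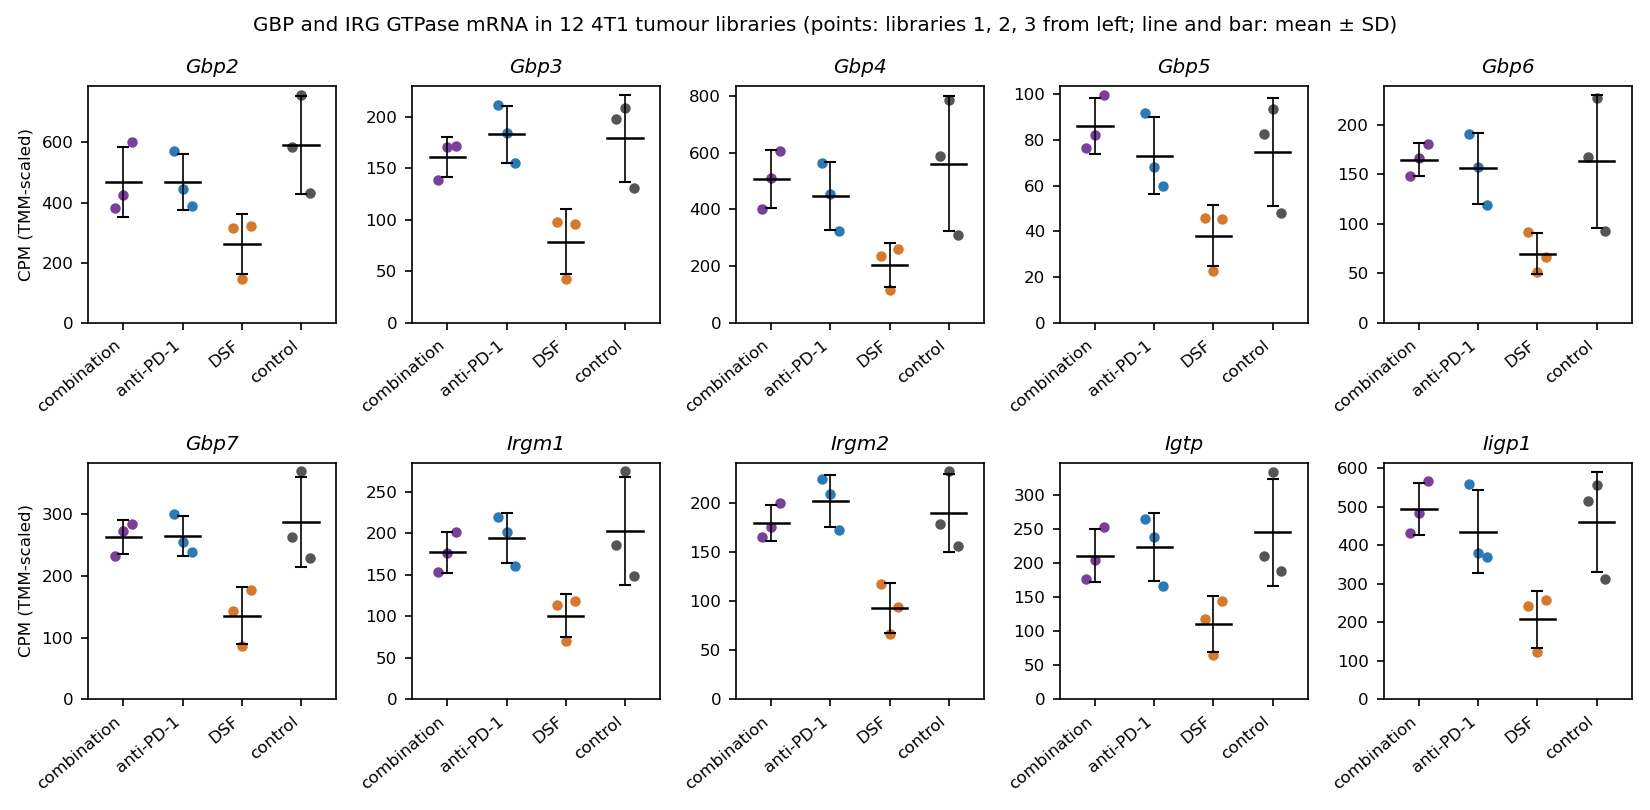
CPM (vertical axes, from 0) of the 10 GTPases in each of 12 libraries, with libraries 1, 2 and 3 of a group from left to right and the mean ± SD in black (n = 3). In every panel the 3 DSF points lie below the 9 others, and DSF replicate 2 is the lowest.

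Among the GBPs, Gbp2, which in mice coats cytosolic bacteria and parasite vacuoles, had the highest level per transcript length (FPKM). It was at 381, 424 and 602 CPM in the combination, 571, 446 and 388 CPM with anti-PD-1, 317, 146 and 321 CPM with DSF and 584, 757 and 431 CPM in controls. The DSF libraries did not overlap with any other group, although the gap from the highest DSF library to the lowest other library, combination replicate 1, was 1.19-fold. The fitted level with DSF was 44.2% of control (log2 fold change -1.18 ± 0.31 SE, edgeR adjusted p = 0.247).

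Gbp5, linked in mouse macrophages to NLRP3 inflammasome activation, was at 76.4, 82 and 99.8 CPM in the combination and 92, 68 and 59.7 CPM with anti-PD-1. With DSF it was at 46.1, 22.8 and 45.5 CPM, and in controls at 82.5, 93.6 and 48.2 CPM. Control replicate 3 was thus close to DSF replicates 1 and 3, and the gap was 1.05-fold. Gbp5 had the smallest of the 10 differences between DSF and control, with a log2 fold change of -0.97 ± 0.30 (edgeR adjusted p = 0.313), and was the member with the highest fitted level in the combination relative to control (0.20 ± 0.29 on the log2 scale, adjusted p = 0.836).

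Gbp4 had the largest difference between DSF and control among the members. It was at 402, 512 and 607 CPM in the combination, 564, 453 and 325 CPM with anti-PD-1, 236, 116 and 260 CPM with DSF and 589, 786 and 311 CPM in controls. Its controls spanned the widest range of the 10 in CPM, with control replicate 3 nearest to the DSF libraries. The log2 fold change of DSF against control was -1.46 ± 0.37 (adjusted p = 0.245), and that of the combination against DSF was 1.31 ± 0.37 (adjusted p = 0.0821).

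Gbp6 is nearly identical in protein sequence to Gbp10 (97.7% over 611 residues), so reads may have been divided between the genes. It was at 148, 167 and 181 CPM in the combination, 191, 157 and 119 CPM with anti-PD-1, 92, 51.5 and 66.6 CPM with DSF and 168, 227 and 93.1 CPM in controls. The highest DSF library and control replicate 3 were only 1.01-fold apart. Summing Gbp6 and Gbp10 before the fit kept the direction of each of its differences between DSF and the other 3 groups and moved none across the threshold.

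Gbp3 and Gbp7, whose proteins are 71% identical, had the clearest gaps among the GBPs. Gbp3 was at 139, 171 and 172 CPM in the combination, 211, 184 and 155 CPM with anti-PD-1, 97.9, 42.8 and 96 CPM with DSF and 198, 209 and 131 CPM in controls. Its highest DSF library was 1.34-fold below the lowest other library. Gbp7, which in mouse macrophages takes part in delivering oxidase components to phagosomes, was at 232, 273 and 284 CPM in the combination, 301, 256 and 239 CPM with anti-PD-1, 144, 86.3 and 177 CPM with DSF and 264, 370 and 229 CPM in controls. Its gap was 1.29-fold.

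The IRG family divides into regulators of the IRGM type (Irgm1, Irgm2 and Igtp), which hold the other IRGs inactive on the cell's own membranes, and effectors such as Iigp1, which disrupt parasite vacuoles. Irgm2, which sits on the Golgi and limits caspase-11 activation in mouse macrophages, was at 165, 176 and 200 CPM in the combination and 224, 209 and 173 CPM with anti-PD-1. It was at 118, 67.1 and 94.4 CPM with DSF and 179, 233 and 156 CPM in controls. The 3 DSF libraries lay 1.32-fold or more below all others. Irgm2 also had the smallest standard errors of the 10 members.

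Irgm1, which is required for resistance to mycobacteria and affects autophagy in mice, was at 153, 176 and 202 CPM in the combination, 219, 202 and 161 CPM with anti-PD-1, 114, 70.9 and 118 CPM with DSF and 186, 275 and 149 CPM in controls. Igtp, also called Irgm3 and found on the endoplasmic reticulum and lipid droplets, was at 176, 204 and 253 CPM in the combination, 264, 238 and 167 CPM with anti-PD-1, 118, 64.8 and 145 CPM with DSF and 211, 334 and 189 CPM in controls. In both genes DSF replicate 2 was the lowest and control replicate 2 the highest of all libraries.

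Iigp1, the effector, was at 433, 484 and 567 CPM in the combination, 560, 380 and 370 CPM with anti-PD-1, 242, 123 and 258 CPM with DSF and 516, 556 and 313 CPM in controls. The DSF libraries were again below all others, by 1.21-fold. Its log2 fold change was -1.15 ± 0.29 for DSF against control (edgeR adjusted p = 0.246) and 1.25 ± 0.29 for the combination against DSF (adjusted p = 0.0541).

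The same libraries were high or low in every member. DSF replicate 2 was the lowest of 12 in all 10, combination replicate 3 the highest and replicate 1 the lowest of the combination in all 10, anti-PD-1 replicate 1 the highest and replicate 3 the lowest of its group in all 10, and control replicate 2 the highest and replicate 3 the lowest control in all 10. Each member's log2 CPM correlated with the mean of the other 9 with Pearson's r of 0.954 to 0.986 over the 12 libraries. These coefficients are a description, since the genes share libraries and depth. All 3 DSF libraries were below all 9 others in 10 of 10 members and in 278 of the 14144 genes tested, or 1.97%. Without DSF replicate 2, the 2 remaining DSF libraries were still below all 9 others in 10 of 10 members and in 5.98% of all genes.

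Per length, the GTPase mRNAs were ordered alike in the combination and in controls, and Igtp came above Gbp4 with anti-PD-1 and, with Irgm1 also above Gbp4, with DSF. In FPKM, the authors' deposited level scaled for transcript length and depth, the combination had 211 ± 49.5 for Gbp2, 182 ± 22.6 for Iigp1, 129 ± 24.8 for Gbp4, 117 ± 20 for Igtp and 91.3 ± 11.5 for Irgm1 (SD, n = 3). Below these were Gbp3 at 67.6 ± 7.75, Irgm2 at 55.2 ± 4.84, Gbp7 at 49.5 ± 4.82, Gbp6 at 40.4 ± 3.68 and Gbp5 at 31 ± 3.96 FPKM. Within 1 SD, Gbp2 and Iigp1, Gbp4 and Igtp, Igtp and Irgm1, Gbp3 and Irgm2, and Irgm2 and Gbp7 were not separated.

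Summed over the 10 members, FPKM was 830, 968 and 1120 in the combination, 1140, 914 and 777 with anti-PD-1, 536, 277 and 560 with DSF and 1040, 1360 and 772 in controls. The DSF sums were below all others. Gbp2 made up 21.5% ± 1.97 of the summed FPKM in the combination, 21.9% ± 0.592 with anti-PD-1, 24.4% ± 1.4 with DSF and 24.9% ± 0.688 in controls (SD, n = 3). Gbp5 made up 3.19% ± 0.128 in the combination, 2.73% ± 0.131 with anti-PD-1, 2.87% ± 0.0732 with DSF and 2.5% ± 0.239 in controls. The make-up of the pool thus differed by a few percentage points while its size was lower with DSF.

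The authors' transcript estimates gave 1 transcript each for Gbp2, Gbp5, Irgm2 and Igtp. Shares here are of the gene's estimated read counts, which are not scaled for transcript length. Irgm1 was divided almost evenly, with its curated transcript at 43.5% to 54% of the gene in every library, and its group means were 47% in the combination, 49.4% with anti-PD-1, 47.4% with DSF and 52.3% in controls. For Gbp6 the curated transcript took 45.6% to 62%. Gbp3, Gbp4, Gbp7 and Iigp1 had at least 84.3% in 1 transcript in every library.

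The comparison of DSF with control asks what DSF alone did to the tumours. All 10 members were lower with DSF (log2 fold changes -1.46 to -0.97), where the median of all genes tested was 0.0308. In edgeR 0 of 10 passed, with adjusted p of 0.187 to 0.313, and 0% of all genes passed. At an unadjusted p under 0.05 all 10 were lower, as were 5.15% of all genes. DESeq2 called 9 of the 10 (all but Gbp5) and 1.58% of all genes, and limma on log2(FPKM + 1) called 0 members and 0% of all genes. Without DSF replicate 2 the members' median was -0.88, and without control replicate 2 it was -0.87, with 0 passing in edgeR in either case. In bulk tumour RNA, fewer cells carrying these mRNAs and less mRNA per cell cannot be told apart.

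**Figure D2:**
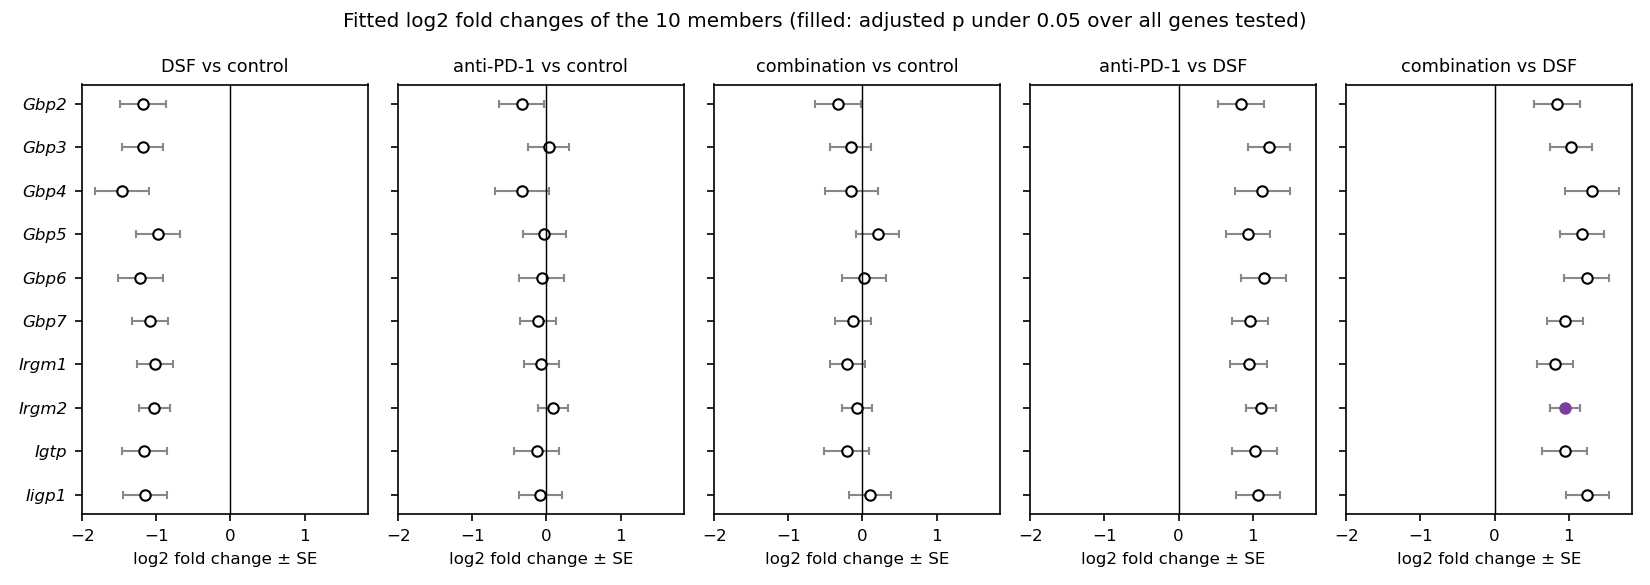
Fitted log2 fold change ± SE (horizontal axes) of each GTPase in 5 comparisons, first-named group over second. All 10 lie below 0 for DSF against control (-1.46 to -0.97) and above 0 for anti-PD-1 and for the combination against DSF, and the single filled point is Irgm2 in the combination against DSF.

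Set against DSF alone, the combination compares tumours given both agents with tumours given DSF only. Skin markers also differed, at 0.0902%, 0.498% and 0.289% of counts in the combination and 0.0215%, 0.0194% and 0.0101% with DSF. The part of the antibody apart from that of tissue content was not tested. All 10 members were higher in the combination, by 0.81 to 1.31 on the log2 scale (median 0.99), where the median of all genes was -0.0246. Irgm2 rose 1.94-fold (log2 fold change 0.95 ± 0.20, edgeR adjusted p = 0.0433). The 9 others had adjusted p of up to 0.169, with Iigp1 at 0.0541, Gbp6 at 0.0595, Gbp5 at 0.0667 and Gbp7 at 0.0668. Of all genes tested, 1.86% passed, and 1.6% passed in the higher direction, so 1 of 10 is a count that rests on a single gene. At an unadjusted p under 0.05, 10 of 10 members were higher, against 10.5% of all genes. DESeq2 called 9 of 10 (all but Gbp2) and 8.27% of all genes. The limma fit on log2(FPKM + 1) called 5 (Gbp5, Gbp6, Gbp7, Irgm2 and Iigp1) and 3.05% of all genes.

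The Irgm2 call is close to the threshold. It was lost in 13 of 21 alternatives, among them those without control replicate 1, 2 or 3, DSF replicate 1 or 3, anti-PD-1 replicate 3, or any 1 combination replicate, with Irgm2 adjusted p of 0.0515 to 0.162 there. The replicate block gave 0.0746, and without DSF replicate 2 it passed with a log2 fold change of 0.75 (adjusted p = 0.0499). Adding skin and adipocyte marker scores to the model gave a log2 fold change of 0.74 and an adjusted p of 1.

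Anti-PD-1 alone, set against DSF alone, gave differences of similar size. All 10 members were higher, by 0.84 to 1.22 on the log2 scale (median 1.05). In edgeR 0 of 10 passed, against 0.0707% of all genes, and 10 of 10 were at an unadjusted p under 0.05, against 4.45% of all genes in that direction. The smallest adjusted p was 0.0936, for Irgm2 (1.12 ± 0.20). DESeq2 called 7 members and 1.03% of all genes, and limma 0 members and 0.134% of all genes. This comparison and the one before share the 3 DSF libraries with the DSF against control comparison, so their signs are not independent of one another. Without DSF replicate 2 the median was 0.78.

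Against control, neither anti-PD-1 nor the combination set the GTPases apart. With anti-PD-1, 2 members were higher and 8 lower, between -0.33 and 0.09 on the log2 scale (median -0.07), with an edgeR adjusted p of 0.999 for each. In the combination, 3 were higher and 7 lower, between -0.33 and 0.20 (median -0.14), with adjusted p of 0.728 to 0.984. In both comparisons 0% of all genes passed, and 0 members were at an unadjusted p under 0.05, against 1.73% of all genes with anti-PD-1 and 11.2% in the combination. DESeq2 called 0 members in both, against 0% of all genes with anti-PD-1 and 1.77% in the combination, and limma called 0 members and 0% of all genes. These medians depend on control replicates 2 and 3. Without control replicate 2 they were 0.17 with anti-PD-1 and 0.10 in the combination. Without control replicate 3 they were -0.28 and -0.31. With standard errors of 0.20 to 0.36, differences of this size were not detectable with 3 libraries a group.

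The combination and anti-PD-1 alone differed by -0.19 to 0.23 on the log2 scale (median -0.01), with 5 members higher and 5 lower, adjusted p of 0.789 to 0.999 and 0 at an unadjusted p under 0.05, against 10.3% of all genes. In edgeR 0% of all genes passed. DESeq2 called 0 members and 0.46% of all genes, and limma 0 members and 0% of all genes.

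Whether DSF had a different effect with the antibody than without it is given by the interaction, which sets the combination minus anti-PD-1 difference against the DSF minus control difference on the log2 scale. It was positive in all 10 members, from 0.86 for Irgm2 to 1.64 for Gbp4 (median 1.13), where the median of all genes was -0.0215. In edgeR 0 of 10 passed (adjusted p of 0.272 to 0.341) and 0% of all genes did. At an unadjusted p under 0.05, 10 of 10 were positive, against 7.05% of all genes. DESeq2 called 2, Gbp4 and Iigp1, and 1.66% of all genes, and limma called 0 members and 0% of all genes. Without DSF replicate 2 the median was 0.84, and since the term holds the same DSF and control libraries, it repeats rather than adds to the comparisons above.

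Averaged over both antibody states, the members' DSF effects were -0.69 to -0.37 (median -0.58, adjusted p of 0.406 to 0.636, 9 lower at an unadjusted p under 0.05, against 3.7% of all genes). The antibody effects averaged over both DSF states were 0.25 to 0.59 (median 0.51, adjusted p of 0.2 to 0.741, 6 higher at an unadjusted p under 0.05, against 6.52% of all genes). In the test for any difference among the 4 groups, the members' adjusted p was 0.09 to 0.274, with 10 at an unadjusted p under 0.05, against 13.2% of all genes. In edgeR and in limma 0 of 10 members and 0% of all genes passed in each of these 3 tests. DESeq2 called 1 member for the DSF effect (0.509% of all genes), 1 for the antibody effect (2.27%) and 10 for any difference (6.15%).

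Of the other GBP and IRG family genes, 14 were in the table and 13 were tested, all but Irgc1, which was at or near 0 FPKM in every library. Gbp8 and Gm12250, another IRG gene, rose in the combination against DSF. Gbp8 averaged 50.1 ± 5.02 CPM in the combination, 32.7 ± 9.9 with anti-PD-1, 17.7 ± 4.63 with DSF and 35.8 ± 9.19 in controls (SD, n = 3), a log2 fold change of 1.50 ± 0.26 for the combination against DSF (edgeR adjusted p = 0.0409). Gm12250 averaged 57.4 ± 5.18 CPM in the combination, 55.7 ± 13.3 with anti-PD-1, 21.3 ± 6.01 with DSF and 54.1 ± 19.3 in controls (1.43 ± 0.28, adjusted p = 0.0409). All 13 were higher in the combination than with DSF (median 0.94) and all 13 were lower with DSF than in control (median -1.02). These medians were 0.73 and -0.81 without DSF replicate 2, with 3 (Gbp8, Gm12250 and Tgtp2) and 0 genes passing. Over all genes, 601 of 14293 then passed in the combination against DSF, against 263 of 14144 with all 12 libraries. In DSF against control 0 of all genes passed either way.

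Not all family genes shared the pattern of the members. In 8 of the 13, namely Gbp2b, Gbp8, Gbp9, Gbp10, Tgtp1, Tgtp2, Ifi47 and Gm12250, the 3 DSF libraries were below all 9 others, as in the 10 members. They were not in F830016B08Rik, 9930111J21Rik1, 9930111J21Rik2, Gvin1 and Irgq. Irgq, an IRG-like gene, was at 5.28 ± 0.298 FPKM in the combination, 4.74 ± 0.759 with anti-PD-1, 5.03 ± 0.928 with DSF and 5.43 ± 0.632 in controls, with a log2 difference of -0.06 ± 0.16 between DSF and control (adjusted p = 0.927).

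The remaining family genes differed in level. In FPKM per group, Gbp2b had 188 ± 49.1 in the combination, 165 ± 40.7 with anti-PD-1, 92.4 ± 41 with DSF and 206 ± 51.5 in controls, next to Gbp2 in level and 76.2% identical to it in protein. Gbp9 had 34.3 ± 0.561 in the combination, 37.8 ± 3.7 with anti-PD-1, 21.5 ± 6.45 with DSF and 36.6 ± 4.22 in controls. Gbp10, the near-copy of Gbp6, had 19.7 ± 1.44 in the combination, 18.1 ± 3.6 with anti-PD-1, 8.31 ± 2.34 with DSF and 20 ± 7.12 in controls. The IRG effectors Tgtp1 and Tgtp2, which are 100% identical in protein so that their reads can be split, had 66.2 ± 11 and 90.1 ± 10.8 in the combination and 27.7 ± 11.4 and 36 ± 14.4 with DSF. Ifi47, another IRG effector, had 89.7 ± 15.2 in the combination, 89.5 ± 12.5 with anti-PD-1, 45.1 ± 11.9 with DSF and 95.9 ± 33.5 in controls. Gvin1, F830016B08Rik and both 9930111J21Rik genes averaged at most 4.82 FPKM in any group.

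**Figure D3:**
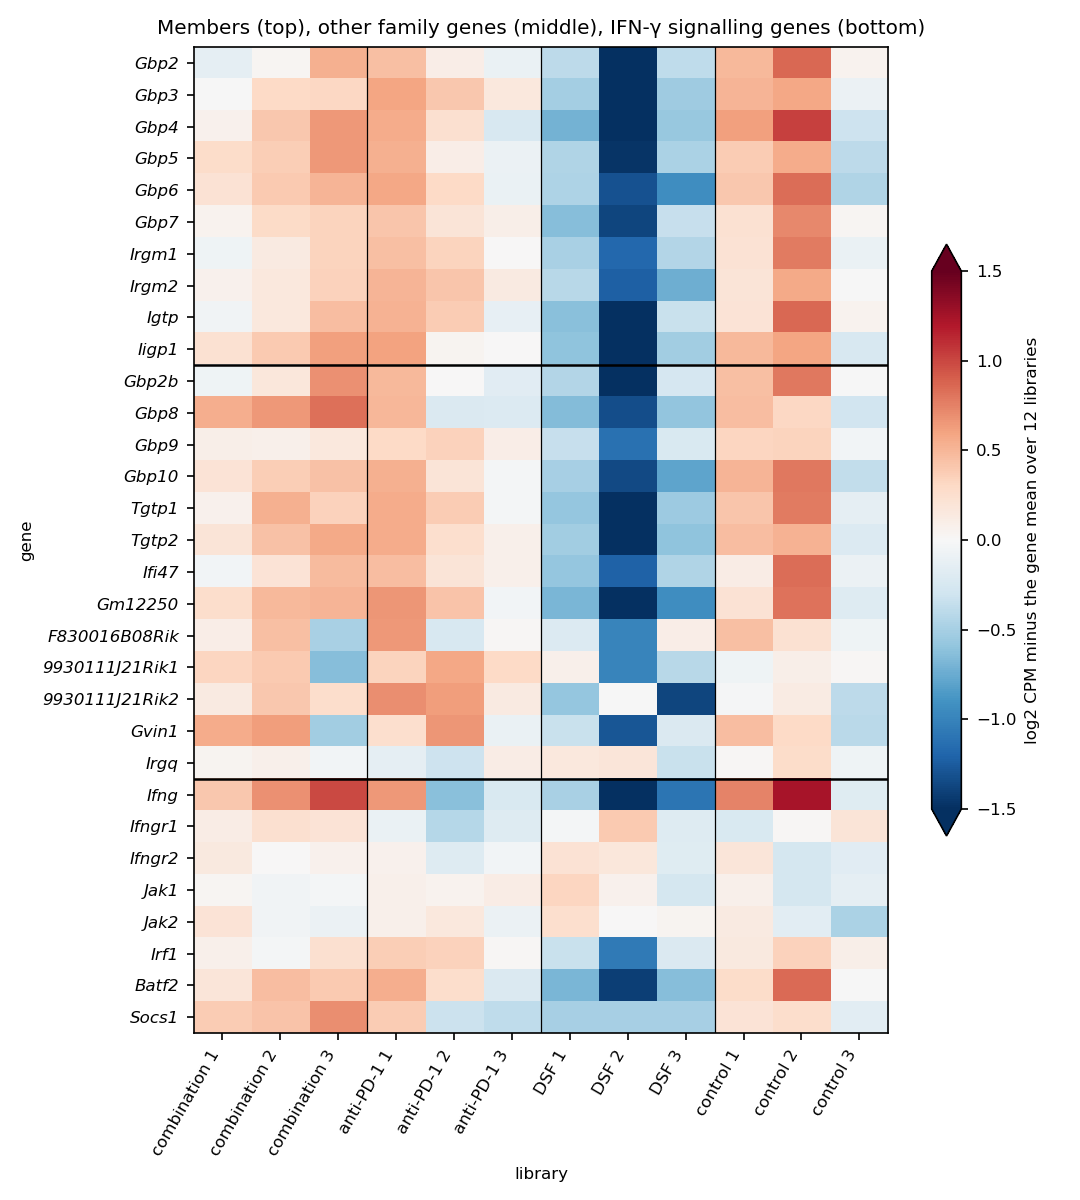
Log2 CPM of each gene minus its mean over 12 libraries (colour, clipped at 1.5), for the 10 GTPases, 13 other family genes and 8 genes of the interferon-gamma pathway. The DSF columns are blue in the members and in 8 other family genes, with DSF replicate 2 the darkest, while Irgq, Ifngr1, Ifngr2, Jak1 and Jak2 show little of this pattern.

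Upstream of the GTPases, the ligand Ifng was at low levels. It was at 3.33, 4.08 and 5.06 CPM in the combination, 3.97, 1.57 and 2.11 CPM with anti-PD-1, 1.74, 0.5 and 1.1 CPM with DSF and 4.26, 6.07 and 2.18 CPM in controls. DSF and anti-PD-1 libraries overlapped, which was not so for the GTPases. The log2 fold change was -1.90 ± 0.53 for DSF against control (edgeR adjusted p = 0.272) and 1.90 ± 0.53 for the combination against DSF (adjusted p = 0.083). Irf1 averaged 291 ± 28.3 CPM in the combination, 323 ± 41.9 with anti-PD-1, 193 ± 55.2 with DSF and 311 ± 30.7 in controls, and the combination differed from DSF by 0.59 ± 0.19 on the log2 scale (adjusted p = 0.123).

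Of the 11 genes of ligand, receptor and signalling, 2 rose in the combination against DSF. They were Socs1, which restrains JAK kinases (1.02 ± 0.20, edgeR adjusted p = 0.0409), and Batf2, an interferon-induced transcription factor (1.23 ± 0.27, adjusted p = 0.0475). Of the 11, 7 were higher and 4 lower, with a median of 0.57. None passed in DSF against control, where 5 were higher and 6 lower (median -0.56). Leaving out DSF replicate 2 gave medians of 0.37 and -0.46. Then 1 gene, Socs1, was among the 601 of 14293 genes that passed in the combination against DSF.

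Other interferon-gamma targets that passed in the combination against DSF were of the MHC class II pathway. Of 19 tested, 4 rose there: the class II activator Ciita (1.78 ± 0.26, edgeR adjusted p = 0.0387), H2-Ab1 (1.76 ± 0.25), H2-Aa (1.68 ± 0.23) and the invariant chain Cd74 (1.52 ± 0.22), each at the same adjusted p. Ciita averaged 71.6 ± 1.59 CPM in the combination, 46.2 ± 15.2 with anti-PD-1, 20.9 ± 7.22 with DSF and 48.9 ± 8.28 in controls. The chemokine Cxcl9 averaged 357 ± 63.8 CPM in the combination, 251 ± 89.2 with anti-PD-1, 116 ± 60.6 with DSF and 285 ± 54.4 in controls (1.62 ± 0.38, adjusted p = 0.0561). The list's median was 0.77 in the combination against DSF and -0.78 in DSF against control, where 17 of 19 were lower and 0 passed. With DSF replicate 2 left out the medians were 0.56 and -0.54, with 6 (those 4, Cxcl9 and Cxcl10) and 0 genes passing. Calls over all genes in the combination against DSF were then 601 of 14293, against 263 of 14144 with all libraries.

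Of 14 type I interferon genes tested, 12 had higher and 2 lower levels with anti-PD-1 alone than with DSF alone (median 1.22). The median was 0.54 with anti-PD-1 against control (14 of 14 higher, 0 passing in edgeR, 8 at an unadjusted p under 0.05), where the GTPases had -0.07. In DSF against control 12 of the 14 were lower and 2 higher (median -0.67, 0 passing in edgeR). All 12 were at an unadjusted p under 0.05, against 5.15% of all genes in that direction. Leaving out DSF replicate 2 gave a median of -0.63 there. Against DSF, 5 rose with anti-PD-1: Ifit3 (1.86 ± 0.23, adjusted p = 0.0113), Cmpk2 (1.76 ± 0.19, 0.00938), Ifit1 (1.60 ± 0.23, 0.0374), Usp18 (1.53 ± 0.22, 0.0374) and Ifit2 (1.50 ± 0.17, 0.00938). Without DSF replicate 2, 3 of these passed, Cmpk2, Ifit2 and Ifit3, and the median was 1.19. Of all genes, 7 of 14293 passed there, against 10 of 14144 with all libraries. Cmpk2 averaged 32.5 ± 3.43 CPM in the combination, 65.2 ± 16.9 with anti-PD-1, 19.2 ± 2.62 with DSF and 34.8 ± 2.67 in controls. In the combination against DSF only Ifit2 of this list passed (0.90 ± 0.17, adjusted p = 0.0409), and the median was 0.56. The difference between this list and the GTPases was not tested.

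Among partners of the GTPases no gene passed with all 12 libraries. Without DSF replicate 2, Pycard and Sqstm1 were among the 601 of 14293 genes that passed in the combination against DSF. Of 8 inflammasome genes 0 passed in the combination against DSF (edgeR; 1 at an unadjusted p under 0.05; median 0.34), and the largest difference was that of Pycard, the adaptor ASC (1.50 ± 0.37, adjusted p = 0.0619). Pycard averaged 15.6 ± 3.25 CPM in the combination, 9.19 ± 4.31 with anti-PD-1, 5.49 ± 2.13 with DSF and 9.6 ± 1.61 in controls. Of 14 genes for autophagy and vacuole marking 0 passed, 5 were higher and 9 lower (median -0.06), with 6 lower at an unadjusted p under 0.05. Sqstm1, an autophagy receptor, averaged 267 ± 37 CPM in the combination, 444 ± 105 with anti-PD-1, 468 ± 90.8 with DSF and 368 ± 27.5 in controls (-0.81 ± 0.19 for the combination against DSF, adjusted p = 0.0514).

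Across the 12 libraries, each GTPase was higher where Ifng was higher. Pearson's r of log2 CPM was 0.858 for Igtp to 0.946 for Iigp1 and Spearman's rho 0.706 to 0.923, with permutation p adjusted over the 10 relations of 0.00018 to 0.00066 for r and 0.0009 to 0.013 for rho (two-sided). On deviations from the group means, r was 0.747 to 0.922 (exact permutation within groups, adjusted p of 0.017 to 0.0478), so the relation was also present among libraries of the same group. The relation rests in part on the DSF libraries. Without DSF replicates 2 and 3, farthest from the median of Ifng, r was 0.561 to 0.871, rho was 0.515 to 0.867, and by permutation 8 of 10 passed for r and 6 of 10 for rho. Without all 3 DSF libraries, a choice made after seeing the data, r was 0.396 to 0.882, rho was 0.45 to 0.867, and by an exact permutation test 6 of 10 passed for r and 4 of 10 for rho. The relation to Ifng was not computed for genes outside the 10, so these counts have no share over all genes beside them. Nor are the 10 relations independent, since each member's r with the mean of the other members was 0.954 to 0.986.

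**Figure D4:**
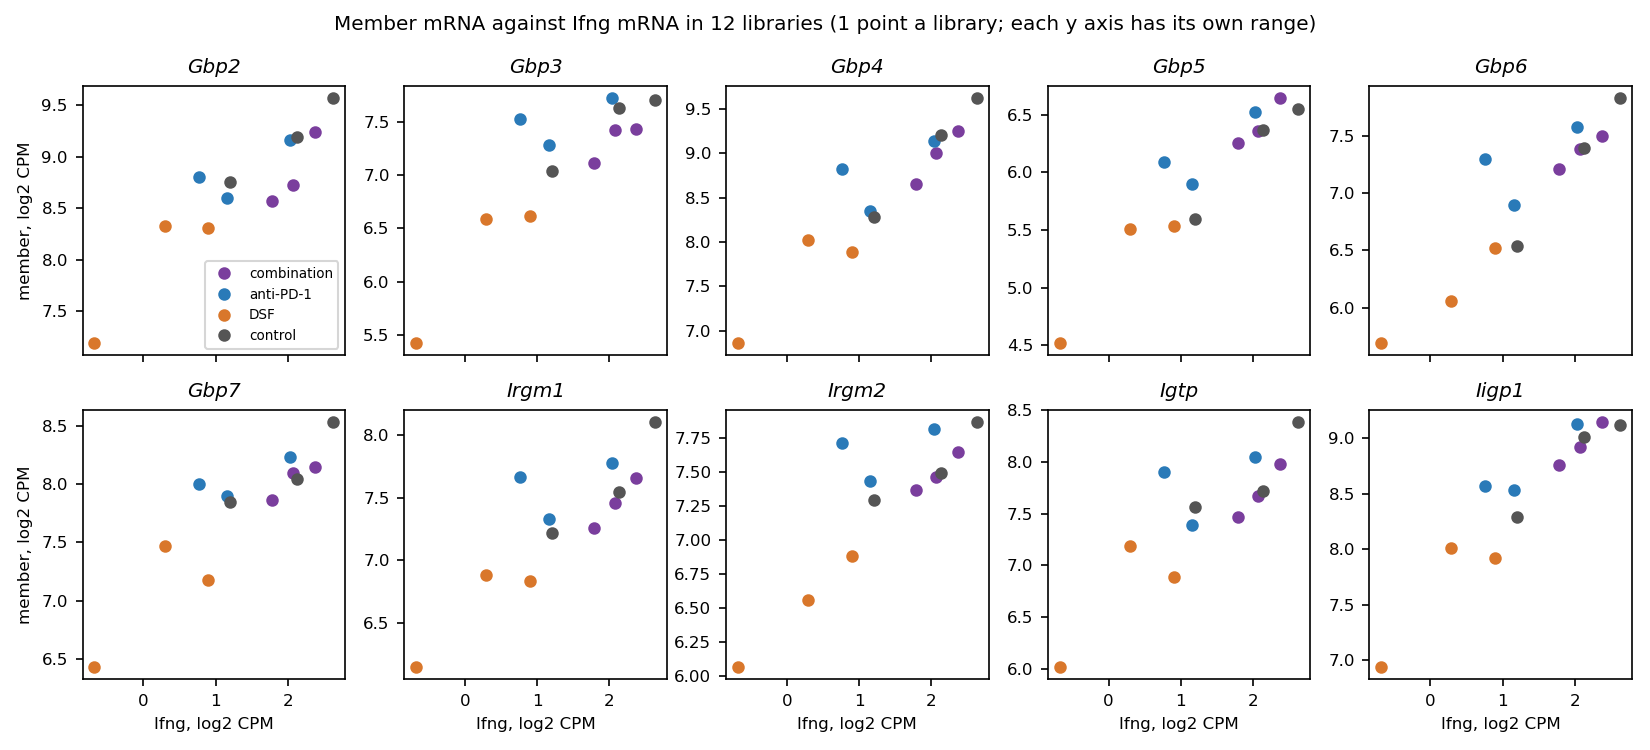
Log2 CPM of each GTPase (vertical axes, each with its own range) against log2 CPM of Ifng (horizontal axes), 1 point a library, coloured by group. DSF replicate 2 is the lowest point in each panel, control replicate 2 has the most Ifng, and r is 0.858 to 0.946.

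The genes outside the 10 whose log2 CPM was most like the members' mean over the 12 libraries were Tgtp1 (Pearson's r 0.988), Tgtp2 (0.984), Batf2 (0.981), Ifi47 (0.98), the immunoproteasome subunit Psmb8 (0.979), Gbp10 (0.979), Gm12250 (0.975), the peptide transporter Tap1 (0.969), Gbp2b (0.967) and Il18bp (0.963), which encodes a secreted inhibitor of IL-18. Of these only Il18bp was in none of the lists used here. It averaged 52.9 ± 8.94 CPM in the combination, 49.5 ± 11.6 with anti-PD-1, 27.6 ± 5.05 with DSF and 55.1 ± 19.9 in controls.

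By their medians, markers of T cells, NK cells and dendritic cells were lower with DSF than in control and higher in the combination than with DSF, and few of them passed a test. The 11 T cell markers summed to 97.5 to 123 CPM in the combination, 56.3 to 106 with anti-PD-1, 44 to 58.4 with DSF and 70.5 to 90.1 in controls, none of them at 0 in any library. Their median was -0.65 for DSF against control (11 of 11 lower, 0 passing) and 1.01 for the combination against DSF (11 of 11 higher, 0 passing in edgeR, 11 at an unadjusted p under 0.05). The medians became -0.59 and 1.07 without DSF replicate 2, with 0 and 2 (Cd4 and Cd3g) passing. Without that library 601 of all 14293 genes passed in the combination against DSF. The 12 cytotoxic and NK cell markers summed to 96.6 to 107 CPM in the combination, 81.8 to 94.9 with anti-PD-1, 48.3 to 76.3 with DSF and 68.8 to 154 in controls. Their medians were -0.74 for DSF against control (9 of 12 lower, 0 passing) and 0.98 for the combination against DSF (12 of 12 higher). Klrk1 (2.04 ± 0.40) and Klrb1c (2.06 ± 0.40), both NK cell receptors, rose in the combination against DSF (edgeR adjusted p = 0.0409 each). The 9 dendritic cell markers summed to 154 to 167 CPM in the combination, 100 to 131 with anti-PD-1, 59.6 to 113 with DSF and 95.8 to 133 in controls, and Siglech of plasmacytoid cells rose in the combination against DSF (2.59 ± 0.56, adjusted p = 0.0433). The dendritic cell medians were -0.70 for DSF against control (6 of 9 lower, 0 passing) and 1.24 for the combination against DSF (8 of 9 higher). With DSF replicate 2 left out, the 2 medians were -0.62 and 0.80 for the cytotoxic and NK cell markers, 3 of which passed in the combination against DSF (Klrb1c, Klrk1 and Tbx21), and -0.54 and 0.92 for the dendritic cell markers, of which 0 passed. The part of these cells in the GTPase differences was not tested.

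Macrophage, fibroblast and endothelial markers differed with and without DSF replicate 2. The 11 macrophage markers summed to 2790 to 3240 CPM in the combination, 1590 to 2490 with anti-PD-1, 1390 to 3500 with DSF and 1530 to 3340 in controls, so groups overlapped. DSF replicate 2, lowest in all GTPases, had the highest sum of the 12, most of it from Mrc1 (1070 CPM) and Apoe (1130 CPM). Of the 11 markers, only Mrc1 and Mertk were at their highest of the 12 libraries there. By gene, 9 of the 11 were lower with DSF than in control (median -0.44) and 10 of 11 higher in the combination than with DSF (median 0.55), with 0 passing. With DSF replicate 2 left out, 10 of 11 were lower (median -0.77, 0 passing) and 11 of 11 higher (median 0.93, 1 passing, Fcgr1). The 8 fibroblast markers had medians of 0.31 for DSF against control and -0.01 for the combination against DSF, with 0 passing. Leaving out that library turned these to -0.98 (7 of 8 lower, 0 passing) and 1.18 (8 of 8 higher, 1 passing, Lum). For the 8 endothelial markers the medians were 0.26 and -0.50 with it, and -0.63 and 0.34 without it, with 0 passing in each. The part of macrophages, fibroblasts and endothelium in the GTPase differences was not tested. The 8 neutrophil markers summed to 144 to 228 CPM in the combination, 399 to 482 with anti-PD-1, 352 to 465 with DSF and 130 to 476 in controls, and 3 of them, Retnlg (-3.75 ± 0.64, adjusted p = 0.0409), S100a9 (-1.90 ± 0.43, 0.0499) and S100a8 (-1.84 ± 0.39, 0.0433), fell in the combination against DSF in edgeR, of which S100a9 did not pass without DSF replicate 2. In the skin list Flg, Krt1, Dsg1a and Sbsn rose in that comparison, by 5.16, 4.19, 3.96 and 2.96 on the log2 scale. Without DSF replicate 2, 7 genes of the skin list were among the 601 of 14293 genes that passed there. Lor, Krt71 and Krt25 of this list were at 0 in some libraries. Skin and adipocyte marker scores were also added to the model. The GTPases' medians were then -0.99 for DSF against control, 0.82 for the combination against DSF and 0.94 for anti-PD-1 against DSF. In edgeR 0 members and 0 of all genes passed in each. Members at an unadjusted p under 0.05 were 10 in DSF against control and 8 in anti-PD-1 against DSF. There were 0 in the combination against DSF and 0 in the interaction. Without the scores each of these counts was 10.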

How the data were processed

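Total RNA was measured in 12 tumour libraries. The authors deposited a gene table with expected counts, estimated read counts per gene of which 9.02% are not whole, and FPKM. A deposited transcript table holds expected counts per transcript, and these counts gave the transcript shares. Per the submitters' processing notes, the tools were RSEM 1.2.12, HISAT2 2.0.4, Bowtie2 2.2.5 and DESeq2 1.4.5, and the genome build is not given in the sources used here. Columns were matched to groups through the deposited group plan.

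Counts were rounded, filtered with filterByExpr (14144 of 18433 genes kept), scaled by TMM and fitted with edgeR 4.0.16 in R 4.3.3 (quasi-likelihood, 1 mean per group, 12 libraries, two-sided, Benjamini-Hochberg adjustment over all genes tested, threshold 0.05). Total counts were 13323171 to 16809705 per library. No pair of libraries of the same group looked like 1 library deposited in duplicate, and pairs across groups were not checked. The fit was tested on simulated counts. DESeq2 1.42.0, limma 3.58.1 on log2(FPKM + 1) and log2(FPKM + 0.1), and other filters, scalings and samples were alternatives. Log2 CPM for correlations used a prior count of 2. Permutation tests used scipy 1.17.1 with 100000 resamples, or 1296 exact within-group arrangements. Protein identity came from the longest open reading frames of GENCODE M21 transcripts, and promoters from RefSeq (GRCm38.p6).

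The members and gene lists were chosen with earlier results of these data known. All 10 members and the other family genes in the table are named. From each other list, genes were named by the size of the combination against DSF difference, at most 4, plus Ifng and Irf1. Other list genes were named after their values were seen, because they passed a test or bore on a marker sum. One gene covered by the naming rule is not reported here.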

Additional observations from a re-analysis of the deposited data

How the results depend on the processing

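Every alternative kept the sign of every member in DSF against control, the combination against DSF, anti-PD-1 against DSF, the interaction and both main effects. Signs changed in 18 of 210 member values for anti-PD-1 against control, 12 of 210 for the combination against control and 24 of 210 for the combination against anti-PD-1. The count of members called moved with the tool. DESeq2 called 9 of 10 in DSF against control, 9 in the combination against DSF, 7 in anti-PD-1 against DSF, 2 in the interaction, 1 for each main effect and 10 for any difference, where edgeR called 0, 1, 0, 0, 0 and 0; the cause was not tested. Over all genes DESeq2 called 223, 1170, 146 and 235 in the first 4 of these, where edgeR called 0, 263, 10 and 0. In the combination against DSF, limma on log2(FPKM + 1) and on log2(FPKM + 0.1) called 5 each. Without a filter on low counts, with only the groups compared in the fit, or with marker scores of skin and adipocytes as covariates, the count was 0, and leaving out 1 library in turn gave 0 to 2 (2 without anti-PD-1 replicate 1). The first adds genes to the adjustment and the second removes samples. The cause of the changed count was not tested for any of them. Leaving out 1 library in turn gave 0 to 1 for anti-PD-1 against DSF, with 1 (Irgm2) without DSF replicate 1. By Pearson's r, the Ifng relation held in 6 of 10 members without the 3 DSF libraries, against 10 with all 12. It was not computed for other genes.

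Same-numbered libraries of different groups had deviations from their group means that correlated at -0.365 to 0.462 (Pearson's r, median 0.129 of 18 pairs). Different-numbered libraries correlated at -0.465 to 0.414 (median -0.043 of 36 pairs), and 7 of 12 libraries correlated best with their own number. These values do not decide whether the replicate numbers pair the samples, and the main fit used no replicate block. A replicate block gave 0 members called in the combination against DSF, and 7 genes in all against 263 without it. With 3 libraries a group and a common biological coefficient of variation of 0.277, small differences are not detectable.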
